A study of Mus musculus with 4 samples.

Results

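The retinoid and related nuclear receptors described here are 9 genes of 32272 in the matrix: the retinoic acid receptors Rara, Rarb and Rarg, the retinoid X receptors Rxra and Rxrb, and the receptors Nr2f6, Pparg, Nr1h2 and Vdr. They were listed by name, with no threshold on a measured value, though earlier results of these data were known when the list was made. Chromatin was described over the 204 of 174339 peaks that lay within 50 kb of the interval the files give for each gene. That interval covers start sites but not always every annotated one, as for Rarb, where it runs from 16575543 to 16575827 on chromosome 14. RNA was counted as unique molecular identifiers (UMIs) and given as CPM, the UMIs of a gene per 1000000 UMIs outside the ribosomal RNA locus. Open chromatin was counted by assay for transposase-accessible chromatin (ATAC) in the same nuclei, and a peak or window level is likewise in CPM, over the counts of all peaks.

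The study followed bone marrow hematopoiesis during ligature-induced periodontitis, a gum inflammation set up by tying silk around the molars. Nuclei came from lineage-negative, cKit-positive bone marrow cells of mice, a gate for hematopoietic stem and progenitor cells (HSPCs), with an RNA and an ATAC library each for an unligated control (Ctrl) and a ligature (Lig) sample. The labels of these samples give no allele, the study's methods name C57BL/6 mice as the source of bone marrow suspensions, and the 4 label groups held 1 sample each. Per the study, each sample pooled the bone marrow of several mice, so it is not 1 animal. In the matrix the nuclei of both samples are marked 1 or 2 at the end of the barcode, and the labels do not say which mark is which sample. They are therefore called library 1 and library 2 and belong to no group, no comparison of ligature with control was made, and there were no replicates.

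Library 1 held 5905 nuclei with 10294527 UMIs (median 1641 per nucleus) and 118239764 peak counts, and library 2 held 7714 nuclei with 12537328 UMIs (median 1516.5) and 128699726 peak counts. Of the barcode stems, 72 occurred among the kept nuclei of both libraries. Genes of the ribosomal RNA locus, 3 in number, took 48.6% of UMIs and were left out of the CPM total. The nuclei fell into 16 clusters made without the 9 genes and their peaks, and 14 lineages with at least 50 nuclei in each library entered the comparisons. They were GMP-like (granulocyte-monocyte progenitor), HSC-like (stem cell), pro-B-like, MPP or LMPP-like (multipotent or lymphoid-primed), EryP-like (erythroid), NeuP-like (neutrophil), MkP-like (megakaryocyte), BaP-like (basophil), pro-NK/T-like, cDCP-like (conventional dendritic), cMoP-like (monocyte), cluster 0 (4647 nuclei, led by Nrg1, Tnf and F13a1), cluster 5 (830 nuclei, led by Ccnd1, Ephb2 and Hdac9) and cluster 11 (280 nuclei), the last 3 without a name. Cluster 11 was led by Iglc1, Jchain and Igha, genes of antibody-making cells, and the mature B markers Ms4a1 and Bank1 were also among its leading genes. It had raised markers of both pro-B and mature B cells. The cDCP markers Cd74, H2-Aa, H2-Ab1 and H2-Eb1 were raised in it as well. The cDCP-like nuclei also had raised monocyte markers (Ccr2, Klf4, Ms4a6c and Ctss), MkP-like nuclei those of HSC (Mecom, Ctnnal1, Meis1 and Myct1) and MPP or LMPP-like nuclei those of plasmacytoid dendritic progenitors (Tcf4, Runx2 and Ccr9), and the NeuP-like nuclei had a median of 914.5 UMIs in library 1 and 1248 in library 2. Cluster 11 had medians of 800 and 822 UMIs, and pro-NK/T-like nuclei of 1153 and 1066. The pro-B-like name covered cluster 3, with medians of 1815 and 1487 UMIs, and cluster 8, with 843 and 781. These markers and depths touch the results for those lineages, and their part in the results was not tested.

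Retinoic acid receptors bind DNA as heterodimers with retinoid X receptors, hold corepressors such as NCOR1 when empty, and exchange them for coactivators of the NCOA family when retinoic acid binds. PPARG, the liver X receptor encoded by Nr1h2 and the vitamin D receptor pair with the same RXR proteins, whereas NR2F6 is an orphan receptor related to the COUP transcription factors. In bone marrow, retinoic acid signalling is known for its part in granulocyte maturation and in keeping stem cells dormant. The pairs recognise direct repeats (DR) of a hexamer, and the spacer between the copies, from 1 to 5 bases, is what sorts them: DR5 and DR2 are textbook RAR elements, DR1 is read by PPARG, DR3 by the vitamin D receptor and DR4 by liver X receptors.

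Direct repeats were searched on both strands as 2 hexamers with a spacer of 1 to 5 bases, each hexamer being AGGTCA, the consensus, or else GGGTCA, which starts with G, AGTTCA, with a T inside, or GGTTCA, with both changes. Of the 204 peaks near the 9 genes, 7 (3.43%) held one, against 4199 of 174282 peaks with sequence (2.41%). These 7 are shown, 5′ to 3′ with the hexamers in capitals (GRCm38), because they are the letters that these receptors can read beside their own genes:
Rara DR5, + strand, chr11:98960008-98960024, beside an internal start site: AGTTCAgcaagAGTTCA
Rarb DR5, − strand, chr14:16575513-16575529, in the start site peak: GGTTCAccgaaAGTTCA
Rarb DR2, + strand, chr14:16564470-16564483, in an intron: GGGTCAtgAGGTCA
Rxrb DR1, + strand, chr17:34027880-34027892, in repeat sequence at the start of H2-Ke6: AGGTCAgAGGTCA
Nr1h2 DR1, − strand, chr7:44548794-44548806, in the neighbouring gene Pold1: GGTTCAgGGGTCA
Vdr DR4, + strand, chr15:97858462-97858477, in an exon: AGTTCAtctgGGGTCA
Vdr DR5, − strand, chr15:97880530-97880546, in an intron: GGGTCAgtaggAGGTCA
A match is a stretch of letters and not a bound site.

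The DR5 of Rarb, a textbook retinoic acid response element, lay in the 250 bases before the RefSeq start of the gene (chr14:16575477-16575726, − strand), which are given with the repeat and its spacer in capitals:
Rarb promoter: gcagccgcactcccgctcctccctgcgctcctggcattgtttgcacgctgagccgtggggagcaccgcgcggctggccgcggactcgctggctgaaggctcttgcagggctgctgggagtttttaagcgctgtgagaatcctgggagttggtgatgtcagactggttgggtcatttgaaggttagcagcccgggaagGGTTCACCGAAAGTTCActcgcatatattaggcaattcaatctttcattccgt
Among 32851 RefSeq promoters of 300 bases, 32 (0.0974%) held a DR5.

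The RNA of the 9 receptors was sparse, with 1585 UMIs in all. Rara, Rxrb and Nr1h2 had 362, 448 and 433 UMIs, whereas Rarb, Rarg, Rxra, Nr2f6, Pparg and Vdr had between 41 and 95. Only the first 3 can be followed through the lineages with a useful error, as the plot of CPM by lineage shows. Levels are compared within a gene and not between genes, since the counts are not per length. All intervals are exact Poisson 95% intervals and cover counting error only.

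**Figure D1:**
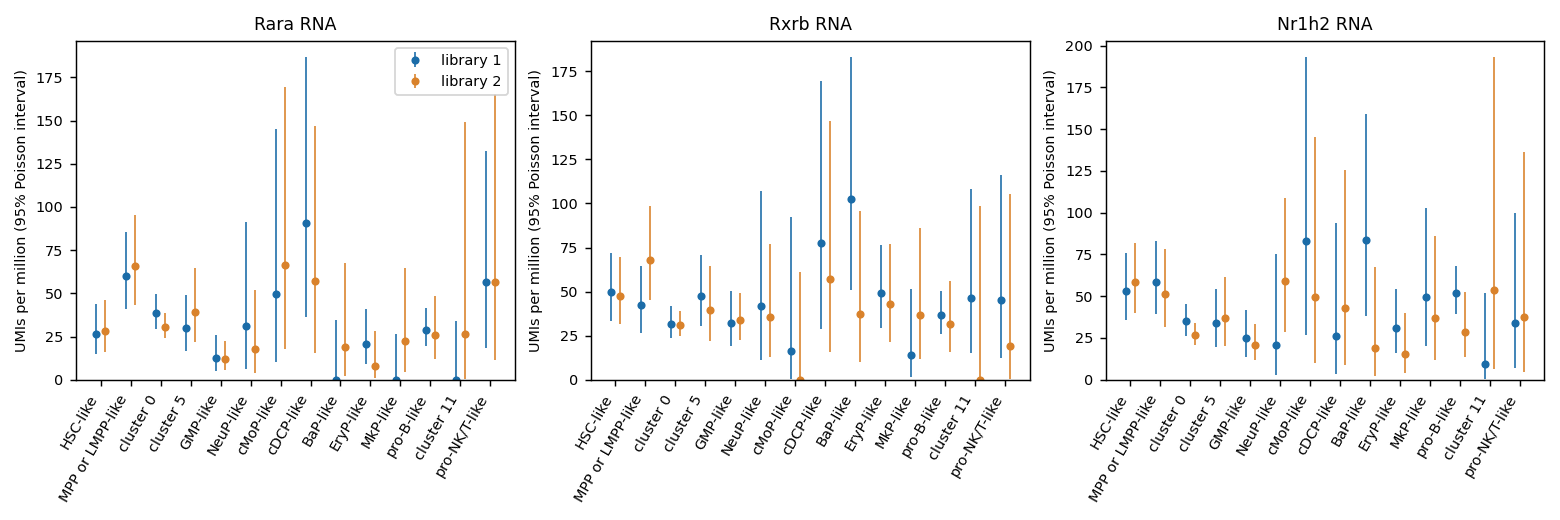
RNA level of Rara, Rxrb and Nr1h2 (CPM, one panel per gene) by lineage, with one point per library and exact Poisson 95% intervals as bars. Rara was highest among the well-counted lineages in MPP or LMPP-like nuclei, at 60.1 and 65.6 CPM, and low in GMP-like nuclei, at 12.4 and 12.2 CPM, in libraries 1 and 2.

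Rara (ENSMUSG00000037992, chr11:98927818-98974942, + strand), the retinoic acid receptor best known in myeloid cells, varied by more than its counting error. In MPP or LMPP-like nuclei, on 31 and 27 UMIs, it stood at 60.1 CPM in library 1 and 65.6 CPM in library 2, which was 2.06- and 2.42-fold the level of the other nuclei of the same library. In GMP-like nuclei it stood at 12.4 CPM (7 UMIs) and 12.2 CPM (10 UMIs), or 0.366- and 0.374-fold. The summed intervals of 47.5 to 80.9 CPM in MPP or LMPP-like and 7.16 to 19.7 CPM in GMP-like nuclei did not overlap. HSC-like nuclei were between them at 26.6 and 28.3 CPM, pro-B-like nuclei had 29.0 and 25.7 CPM, cluster 5 had 29.8 and 39.3 CPM, and cluster 0 had 38.7 and 30.8 CPM, with overlapping intervals. EryP-like nuclei stood at 20.7 and 7.83 CPM, on 8 and 2 UMIs, with a summed interval (7.47 to 28.6 CPM) that overlapped that of all nuclei. The cDCP-like, cMoP-like and pro-NK/T-like nuclei had higher values, of 74.9, 57.9 and 56.7 CPM over both libraries, but on 11, 7 and 8 UMIs, and their intervals reached down to 37.4, 23.3 and 24.5 CPM. NeuP-like nuclei had 6 UMIs, and MkP-like, BaP-like and cluster 11 nuclei had 3, 2 and 1.

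A gene was called for a lineage when it was at least 2-fold above or below the other nuclei in both libraries, with at least 20 UMIs seen or expected. Of the 25 pairs of a receptor and a lineage that met the minimum, 2 were called, the Rara pairs above. The raised plasmacytoid dendritic markers move with the higher call in MPP or LMPP-like nuclei, and their part in it was not tested. Over all genes, 3.87% of 66554 such pairs were called higher and 3.79% lower, and among MPP or LMPP-like pairs 3.75% were higher and among GMP-like pairs 3.74% were lower. With 1 of 25 in each direction, the receptors' share was near this background. The MPP or LMPP-like call fell to 1.93-fold with nuclei of 500 or more genes, and to 1.90-fold with median-of-ratios scaling, both just under the limit.

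Rarb (ENSMUSG00000017491, chr14:16430839-16819156, − strand), a receptor and a textbook target of retinoic acid, had 41 UMIs. HSC-like nuclei held 8 of them in library 1 and 3 in library 2, which was 9.75 CPM over both (4.87 to 17.4), against 3.49 CPM (2.51 to 4.74) in all nuclei. The lower end of the first interval was just above the upper end of the second, though HSC-like nuclei are part of all nuclei, and the counts were too few to enter the calls. The gap came from library 1, at 14.2 CPM, and library 2 alone, at 5.31 CPM (1.09 to 15.5), overlapped all nuclei. Rarg (ENSMUSG00000001288, chr15:102234938-102257517, − strand), known for its part in stem cell maintenance, had 53 UMIs. HSC-like nuclei held 5 and 6 (9.75 CPM over both, 4.87 to 17.4), cluster 0 held 11 and 12, and GMP-like nuclei held 0 and 7. Pro-B-like nuclei held no Rarg UMI in either library, and the interval for 0 counts reached 2.66 CPM, below the 3.38 CPM at the lower end for all nuclei.

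Of the shared partners, Rxrb (ENSMUSG00000039656, chr17:34031812-34038399, + strand) was even. Its levels were 49.7 and 47.8 CPM in HSC-like, 42.7 and 68.1 in MPP or LMPP-like, 49.1 and 43.1 in EryP-like, and 47.6 and 39.3 in cluster 5 nuclei. GMP-like nuclei had 32.0 and 34.2 CPM, cluster 0 had 31.7 and 31.2 CPM, and pro-B-like nuclei had 36.7 and 31.4 CPM. In the lineages that met the count minimum, the ratios to the other nuclei ran from 0.747 to 1.98, and none passed 2-fold in either direction. In that order, neighbouring lineages did not differ beyond their intervals, though cluster 0 (26.1 to 37.4 CPM over both libraries) was below MPP or LMPP-like nuclei (40 to 71.1). Rxra (ENSMUSG00000015846, chr2:27676440-27762957, + strand) had 48 UMIs, at most 14 of them in any lineage (cluster 0), and no lineage had an interval apart from that of all nuclei.

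Nr1h2 (ENSMUSG00000060601, chr7:44549616-44553951, − strand), the liver X receptor that switches on cholesterol efflux genes, was higher in HSC-like nuclei, at 53.3 and 58.4 CPM, than in GMP-like nuclei, at 24.9 and 20.7 CPM. The summed intervals (42.9 to 71.4 and 15.2 to 31.8 CPM) did not overlap, and yet neither lineage was 2-fold from the other nuclei in both libraries (1.33 and 1.96, 0.578 and 0.602). MPP or LMPP-like nuclei stood at 58.2 and 51.0 CPM, cluster 5 at 33.7 and 36.7 CPM and cluster 0 at 34.9 and 26.7 CPM. Pro-B-like nuclei stood at 52.2 CPM on 54 UMIs and 28.5 CPM on 10 UMIs, 1.34- and 0.870-fold the other nuclei, and the interval of library 2 over library 1 (0.248 to 1.08) took in 1. EryP-like nuclei stood at 31.0 and 15.7 CPM on 12 and 4 UMIs, and their summed interval (14.2 to 40.5 CPM) overlapped that of all nuclei.

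Vdr (ENSMUSG00000022479, chr15:97854425-97910630, − strand), the vitamin D receptor, had 95 UMIs. Cluster 0 held 20 and 23 of them (12.7 and 9.43 CPM) and HSC-like nuclei 10 and 5 (17.8 and 8.85 CPM), whereas pro-B-like nuclei held 1 and 0. Over both libraries the pro-B-like level was 0.721 CPM, with an upper limit of 4.02 CPM, below the lower limit of 7.75 CPM in cluster 0. Pparg (ENSMUSG00000000440, chr6:115360951-115490399, + strand), a regulator of lipid uptake in macrophages and fat cells, had 51 UMIs, of which cluster 0 held 8 and 13, and cMoP-like nuclei held 3 and 1 (33.1 CPM over both, 9.02 to 84.7). Nr2f6 (ENSMUSG00000002393, chr8:71374123-71381960, − strand), a repressor known in lymphocytes and leukemic stem cells, had 54 UMIs, of which cluster 0 held 8 and 14, HSC-like 3 and 4, and GMP-like 5 and 2. NeuP-like nuclei held none of either library, with an upper limit of 13.9 CPM, so that at this depth no low or high level of Nr2f6 could be told in neutrophil-like nuclei.

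By likeness across the 14 lineages (Pearson r of log2(CPM + 1), libraries summed, 6904 genes with at least 200 UMIs), the pattern of Rara was closest to Map4 (r = 0.873), Plekha1 (0.869) and 1700025G04Rik (0.834). The pattern of Rxrb was closest to Cetn2 (0.909), Usp19 (0.908) and Rbm4b (0.896), and that of Nr1h2 to Gid8 (0.758), Myo9b (0.716) and Snrk (0.699). These are the highest of 6904 values over points that share libraries and depth, several with under 12 UMIs of the receptor, and they are a description only.

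RNA of the genes for the receptors' partner proteins was counted in the same nuclei. These genes and those of the lists below, unlike the 9 receptors, were not held out of the clustering, so they could help form the clusters in which they are compared. All 14 corepressors and coactivators were measurable in some lineage, with 6 of 158 pairs called higher and 4 lower. Over all genes the shares were 3.87% and 3.79%, so these counts were no more than the background, and the calls are listed as values. Nrip1, a ligand-dependent corepressor, was higher in EryP-like (2.14- and 2.54-fold) and MkP-like nuclei (2.41 and 2.37). Ncoa1 was higher in cDCP-like nuclei, at 570 and 330 CPM (2.98- and 2.30-fold), Ncoa3 in cluster 11 (2.28 and 2.45) and Zbtb16, the repressor that is fused to Rara in a rare leukemia, in BaP-like (7.69 and 6.68) and pro-NK/T-like nuclei (9.79 and 9.02). Ncoa2 was lower in NeuP-like nuclei (0.375 and 0.492), and the other lower calls were of Zbtb16 in MPP or LMPP-like, cluster 5 and pro-B-like nuclei.

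Of the genes that make, carry and clear retinoic acid, 4 of 16 reached the minimum in some lineage, and 0 of 16 pairs were called. The receptor targets gave 3 of 50 pairs higher and 4 lower, counts too small to set against the 3.87% and 3.79% of all genes. The cholesterol exporters that Nr1h2 is known to induce went to different lineages. Abca1 stood at 83.4 and 48.6 CPM in MPP or LMPP-like nuclei (3.10- and 3.45-fold) and was lower in GMP-like nuclei and cluster 0, and Abcg1 stood at 73.4 and 62.7 CPM in pro-B-like nuclei (2.09 and 2.68) and was lower in cluster 0. Cebpe, a granulocyte regulator with a known retinoic acid response, was higher in GMP-like nuclei, at 17.8 and 25.6 CPM (3.77 and 3.32), and lower in cluster 0. It was also among the raised markers by which the NeuP-like nuclei were named, so the rise was not particular to GMP-like nuclei.

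Of the other nuclear receptors, 12 of 21 were measurable, with 11 of 83 pairs called higher and 8 lower, against 3.87% and 3.79% of pairs over all genes. The difference from the 9 described here was not tested. Unlike those 9, the listed receptors took part in the clustering: Nr4a1 was among the leading genes of the MPP or LMPP-like cluster and Rora among those of the pro-NK/T-like cluster. Their folds there are therefore not independent of how the clusters were made. Nr4a1, an immediate early receptor that can pair with RXR, stood at 320 and 284 CPM in MPP or LMPP-like nuclei (8.23- and 8.05-fold), the lineage where Rara was also called higher. It was also higher in HSC-like (2.53 and 2.59) and cMoP-like nuclei (3.47 and 3.54). It was lower in GMP-like nuclei (8.88 and 12.2 CPM, 0.128 and 0.205), where Rara was called lower, and in pro-B-like nuclei (0.155 and 0.311), cluster 0 (0.327 and 0.338) and cluster 5 (0.354 and 0.332). Nr4a2 (9.27 and 9.26) and Nr4a3 (14.8 and 16.7) were higher in pro-NK/T-like nuclei, as was Rora (24.8 and 10.4), and Rora was also higher in HSC-like nuclei (3.88 and 3.29) and lower in cluster 0 (0.433 and 0.447). Nr4a2 was higher in HSC-like (2.30 and 2.22) and cDCP-like nuclei (3.03 and 3.07) too and lower in pro-B-like nuclei (0.176 and 0.154). Nr4a3 was higher in MPP or LMPP-like nuclei (5.09 and 5.74) and lower in cluster 0 (0.233 and 0.180). Thrb, a thyroid hormone receptor and RXR partner, was higher in pro-B-like nuclei (2.57 and 2.75), and Nr1d2 was lower in GMP-like nuclei (0.428 and 0.247).

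Between the libraries, the RNA of the 9 receptors was close. Over the 10614 genes that had 20 or more UMIs in both libraries, the median log2 ratio of library 2 to library 1 was −0.35, 0.565% of genes were called 2-fold higher and 5.46% lower, so library 2 read lower for a typical gene. Of the 17 values of a receptor in all nuclei or in 1 lineage that met the minimum, 0 were called. No test was run, so there is no count at an unadjusted p. Rara went from 31.9 to 29.8 CPM (ratio 0.934, 0.756 to 1.15), Rxrb from 39.6 to 36.8 CPM (0.930, 0.769 to 1.12) and Vdr from 8.01 to 8.17 CPM (1.02, 0.668 to 1.56). Nr1h2 went from 41.3 to 32.5 CPM (0.788, 0.649 to 0.957), the only interval of the 9 that left out 1, and its log2 ratio of −0.34 was near the median of all genes. The intervals of Rarb (0.597 to 2.26), Rarg (0.678 to 2.17), Rxra (0.456 to 1.55), Nr2f6 (0.522 to 1.64) and Pparg (0.490 to 1.60) were wide. Each took in a 1.5-fold rise, so that differences of this size and somewhat larger could not be told at this depth. Of the cofactors and other receptors, Ncoa2 (330.6 and 153.8 CPM) and Nr3c1 (182.6 and 81.9 CPM) were called lower in library 2.

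Chromatin near the genes carried far more counts than the RNA. The windows differed in how far they ranged, as the plot of window ratios shows. As whole windows, which also hold peaks of neighbouring genes, those of Rxrb, Rara, Nr2f6 and Rarg were the most even. From the lineage and library with the lowest ratio to the one with the highest, they ranged over 1.44-, 1.58-, 1.57- and 1.63-fold. Those of Rarb, Pparg, Vdr and Rxra ranged over 10.3-, 8.25-, 4.86- and 3.88-fold, and that of Nr1h2 over 2.28-fold. The lowest values rested on few counts, 24 for Rarb (NeuP-like nuclei, library 1), 28 for Pparg (cluster 11, library 1) and 29 for Rxra (cluster 11, library 2), so these ranges are loose. Within library 1 and library 2 taken alone, the range was 10.3- and 6.09-fold for Rarb, 8.25- and 5.21-fold for Pparg, 4.86- and 3.35-fold for Vdr, 1.99- and 3.85-fold for Rxra and 2.15- and 2.11-fold for Nr1h2. Rxra was thus below both Vdr and Nr1h2 in library 1 and above both in library 2. Called at 1.5-fold or more in both libraries were 13 of 126 pairs of a window and a lineage, 2 higher and 11 lower, against 2.93% higher and 4.93% lower of 355371 pairs for all genes. With only the peaks at start sites, the range was 4.89-fold for Rarg, 2.91 for Nr2f6, 2.72 for Rara and 1.73 for Rxrb, with Vdr at 3.80 and Rxra at 3.79. Of 126 such start site pairs, 1 was called higher and 10 lower. The share over all genes was not computed for start sites, so these counts are not read as a result about the receptors.

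**Figure D2:**
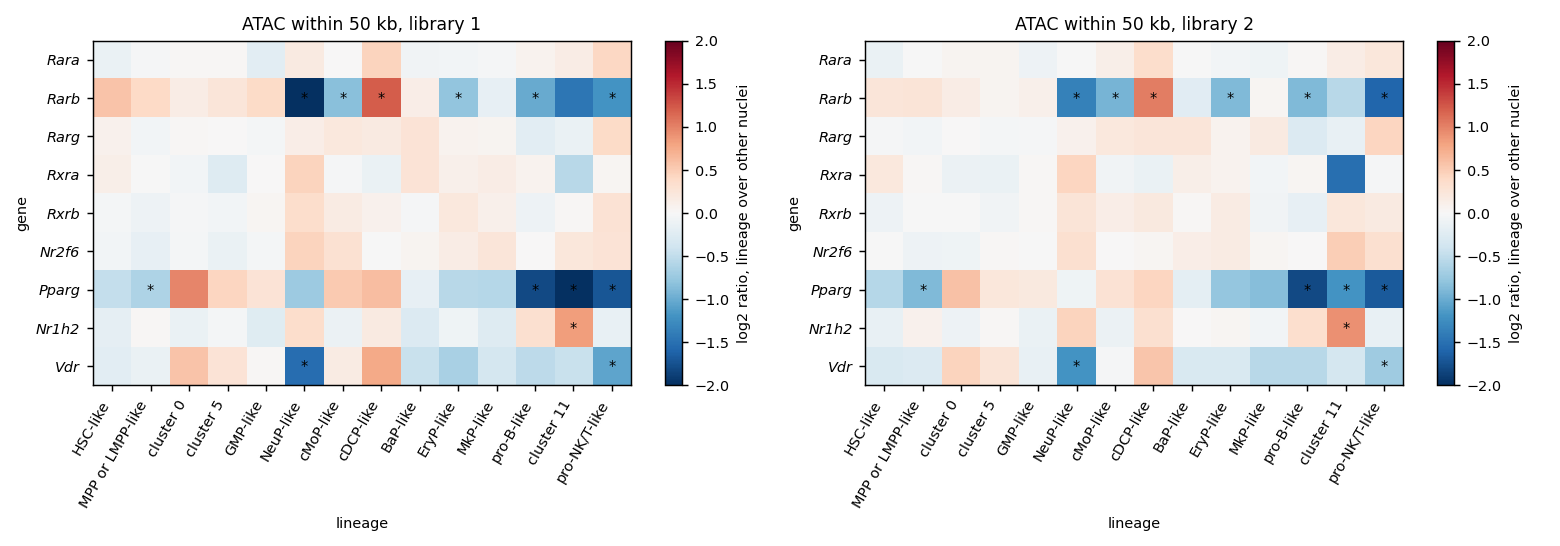
Ratio of the ATAC level within 50 kb of each receptor gene (rows) in a lineage (columns) to that of the other nuclei of the same library, as log2 colour from blue (lower) to red (higher), one panel per library, with a star at each of the 13 calls. The rows of Rarb and Pparg spread most, from 0.226 to 2.31 and from 0.239 to 1.97 as linear ratios, and both have stars at lower values in pro-NK/T-like and pro-B-like nuclei.

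Rarb was lower in 5 lineages and higher in 1. Its window stood at 106 and 99.1 CPM in cDCP-like nuclei, 2.31- and 2.04-fold the other nuclei, where 2.43% of windows were called higher. It stood at 10.6 and 19.6 CPM in NeuP-like nuclei (0.226 and 0.390), 20.5 and 16.6 in pro-NK/T-like (0.438 and 0.335) and 27.5 and 27.3 in EryP-like nuclei (0.579 and 0.545). Pro-B-like nuclei stood at 25.3 and 27.6 CPM (0.499 and 0.544), and cMoP-like nuclei were at 26 CPM in each library (0.558 and 0.525). The counts were 24 and 72 in NeuP-like, 35 and 18 in pro-NK/T-like and 36 and 40 in cMoP-like nuclei. HSC-like nuclei, which held 11 of its 41 UMIs, had 66.1 and 57.2 CPM. Lower calls were common in some of these lineages, at 18% of all windows in NeuP-like, 9.79% in pro-B-like, 7.89% in EryP-like, 7.5% in pro-NK/T-like and 4.62% in cMoP-like nuclei. With only peaks at the start sites of Rarb, the cDCP-like call was lost, the lower of its ratios being 0.893, and with a 10 kb window the cMoP-like call was lost (0.869).

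Within Rarb the accessible introns differed by lineage. The DR2 GGGTCAtgAGGTCA lay in an intron peak, 10.9 kb downstream of a start (chr14:16563651-16564558), that stood at 22.2 and 14.0 CPM in cDCP-like nuclei against 4.54 and 5.02 in the others (4.88- and 2.78-fold). A further intron peak at chr14:16597798-16598695 was higher in the same nuclei (18.3 and 16.6 CPM, 3.31 and 3.32). Other introns went elsewhere: chr14:16605221-16606122 was higher in MkP-like (8.97 and 8.48 CPM, 5.12 and 5.56) and HSC-like nuclei (2.58 and 3.21), chr14:16569299-16570197 in BaP-like (5.30 and 3.07) and chr14:16554885-16555771 in MPP or LMPP-like nuclei (3.03 and 2.61). The start site peak with the DR5 of the printed promoter (chr14:16575067-16575962) stood at 10.8 CPM over all nuclei, and 2.69 CPM in NeuP-like nuclei was its lowest. Peaks within 1 kb of a Rarb start together stood at 1.77 and 3.80 CPM in NeuP-like (0.149 and 0.264) and 4.64 and 5.93 CPM in pro-B-like nuclei (0.354 and 0.405), and in pro-NK/T-like nuclei at 8 counts in library 1 and 0 in library 2.

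**Figure D3:**
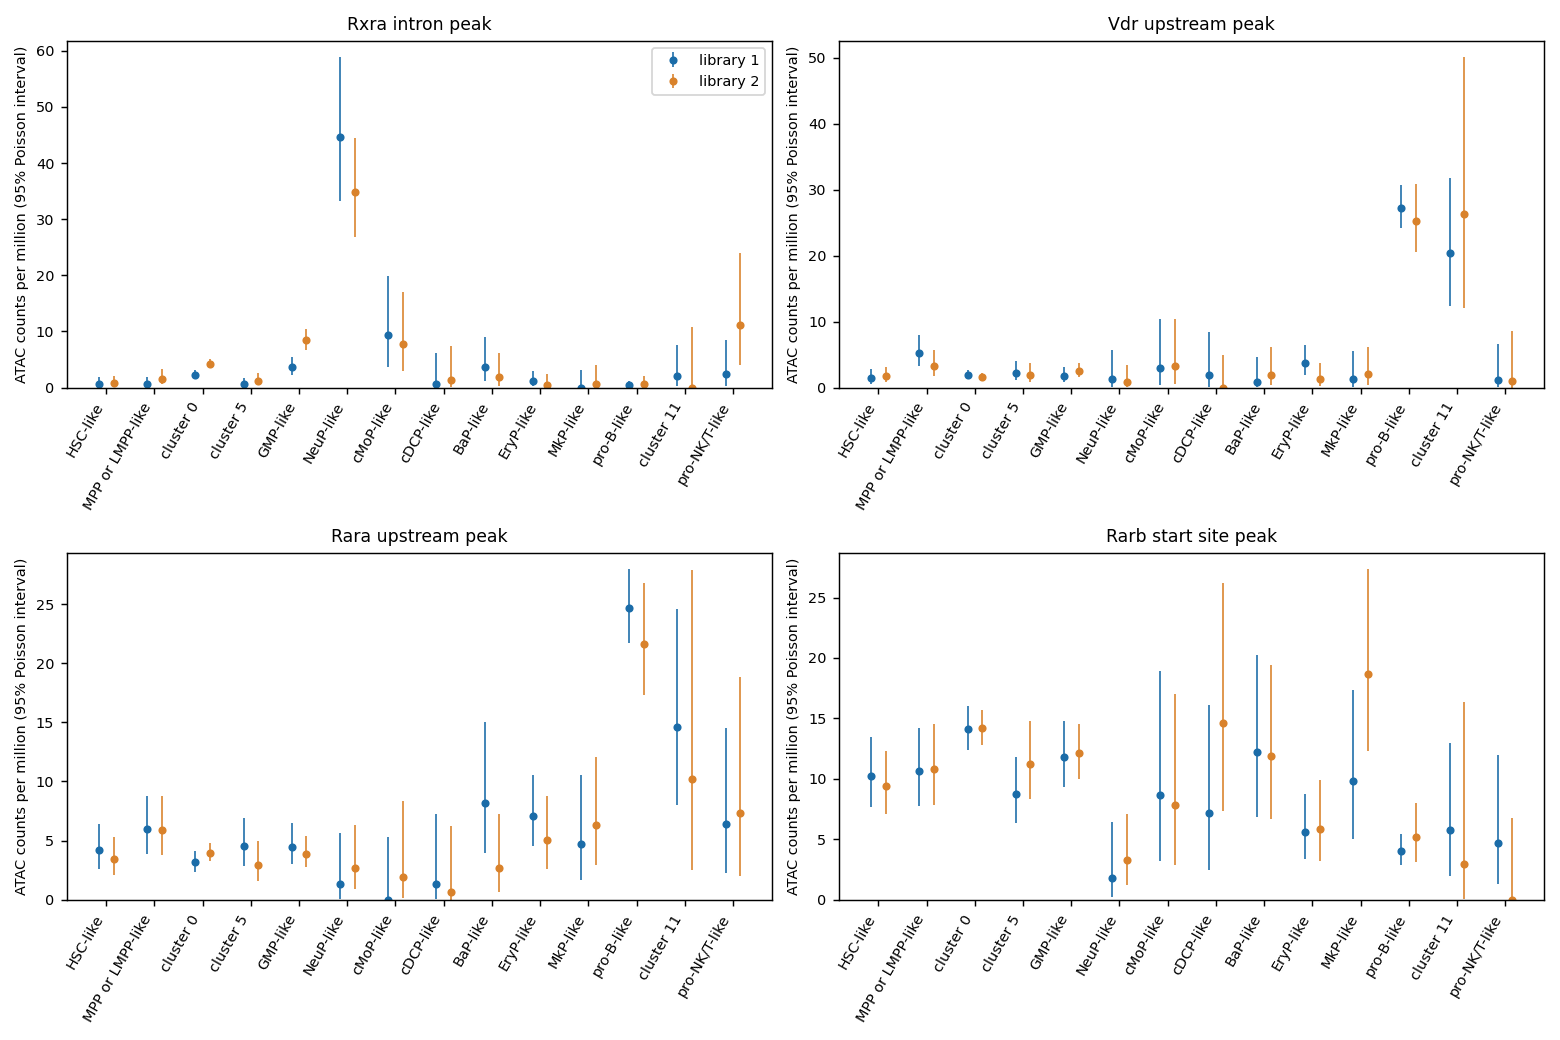
ATAC level (CPM) of 4 peaks, an Rxra intron peak, peaks upstream of Vdr and Rara and the Rarb start site peak, by lineage, one point per library with Poisson 95% intervals on pairs of counts as bars. The Rxra intron peak stood at 44.7 and 34.8 CPM in NeuP-like nuclei and the peak upstream of Vdr at 27.2 and 25.3 CPM in pro-B-like nuclei.

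Single peaks were called at 2-fold in both libraries with at least 40 counts seen or expected, a rule that was added after values had been seen. Of 1568 pairs of a peak near a receptor and a lineage, 72 were higher and 123 lower, that is 4.59% and 7.84%, against 5.89% and 9.12% of 1029930 pairs over all peaks. Peaks near Vdr gave 13 higher and 31 lower calls, Pparg 15 and 24, Rara 9 and 15, Rxra 7 and 13, Nr1h2 10 and 13, Rarg 9 and 11, Rarb 6 and 10, Rxrb 2 and 5, and Nr2f6 1 and 1. Pro-B-like nuclei accounted for 54 of the lower calls, from 178 peaks tested, where 27.3% of all peaks were lower.

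**Figure D4:**
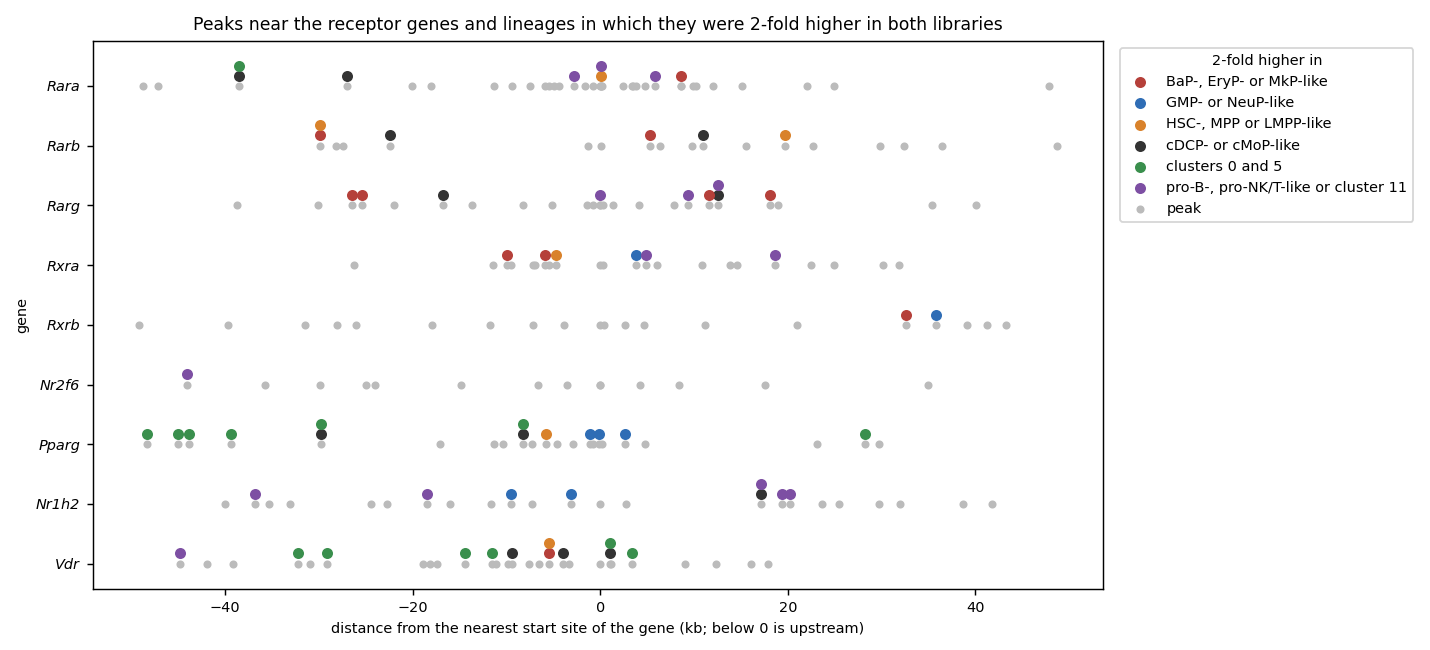
Position of all 204 peaks near the receptor genes (grey points, one row per gene) as distance from the nearest annotated start site of the gene in kb, with a coloured point above for each group of lineages in which the peak was called 2-fold higher in both libraries. The 6 peaks called higher near Vdr in cluster 0 lie on both sides of a start.

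The Rxra locus held the called peak with the largest ratio in library 1, an intron peak at chr2:27713889-27714800, 3.8 kb downstream of an internal start. NeuP-like nuclei stood at 44.7 CPM in library 1 (101 counts, 33.2 to 58.9) and 34.8 CPM in library 2 (128 counts, 26.8 to 44.4), against 1.66 and 3.68 CPM in the other nuclei, 27.0- and 9.45-fold. In library 2 a peak upstream of Vdr had a larger ratio in pro-B-like nuclei. Of the related lineages, GMP-like nuclei had 3.57 and 8.40 CPM and cMoP-like 9.40 and 7.80 CPM, whereas HSC-like had 0.683 and 0.865, pro-B-like 0.444 and 0.645, and MkP-like 0 and 0.706. Among GMP-like nuclei, library 2 was above library 1. NeuP-like nuclei held 1 Rxra UMI, so the RNA could not be set beside this peak. The central 300 bases, shown because they lie under this contrast, held none of the direct repeats, of the GATA letters AGATAA, of the CEBP letters TTGCGCAA or of the EBF letters CCCNNGGGA:
Rxra intron, chr2:27714195-27714494, + strand: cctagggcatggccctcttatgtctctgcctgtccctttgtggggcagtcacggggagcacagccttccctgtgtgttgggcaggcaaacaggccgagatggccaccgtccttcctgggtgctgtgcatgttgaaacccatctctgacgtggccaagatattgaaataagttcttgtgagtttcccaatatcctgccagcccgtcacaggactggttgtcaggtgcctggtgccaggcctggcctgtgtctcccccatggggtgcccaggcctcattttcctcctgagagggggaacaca
The share of all peaks whose central 300 bases held the letters was 13.3% for GATA, 5.71% for EBF and 0.162% for CEBP, and from 0.0775% to 0.241% for the 5 direct repeats.

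Other Rxra introns opened in other lineages. The peak at chr2:27702982-27703847 stood at 18.4 and 14.5 CPM in BaP-like nuclei (6.76- and 5.02-fold) and at 12.3 and 15.3 CPM in EryP-like nuclei (4.94 and 5.76). In pro-B-like nuclei the higher peaks were chr2:27744643-27745551, at 28.8 and 24.9 CPM against 7.23 and 8.05 (3.98 and 3.09), and chr2:27758357-27759289 (2.36 and 2.10). HSC-like nuclei were higher at chr2:27704171-27704996 (2.66 and 2.95). The whole Rxra window was called in no lineage. Its extremes were NeuP-like nuclei at 160 and 161 CPM and cluster 11 at 81.1 and 42.5 CPM, the second on 29 counts.

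Near Vdr, the peak 44.8 kb upstream of the start (chr15:97955018-97955855) was high in pro-B-like nuclei and cluster 11. Pro-B-like nuclei stood at 27.2 CPM (552 counts) and 25.3 CPM (196 counts), against 2.54 and 2.03 CPM in the others, 10.7- and 12.5-fold. Cluster 11 stood at 20.4 and 26.4 CPM (3.12 and 7.98). Vdr RNA was near 0 in pro-B-like nuclei, and the Vdr window as a whole was lower there, at 81.3 and 80.7 CPM against 110 and 116 in all nuclei. In these nuclei 15 of its peaks were called lower, where 27.3% of all peaks were lower. The EBF letters CCCNNGGGA lay in the central 300 bases of 5.71% of all peaks, and a Pold1 peak higher in cluster 11 (chr7:44534015-44534891) held none there. No gene of the annotation overlapped the peak upstream of Vdr. Its central 300 bases held the letters of EBF, an early B cell factor, on both strands over TCCCCAGGGA, which is in capitals:
Vdr upstream peak, chr15:97955287-97955586, + strand: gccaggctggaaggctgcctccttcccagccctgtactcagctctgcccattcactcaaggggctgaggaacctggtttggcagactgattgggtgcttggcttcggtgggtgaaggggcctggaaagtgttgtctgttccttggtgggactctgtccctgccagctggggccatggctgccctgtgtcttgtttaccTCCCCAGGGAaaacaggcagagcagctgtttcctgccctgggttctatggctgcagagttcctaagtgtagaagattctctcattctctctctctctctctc

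Elsewhere around Vdr, cluster 0 was higher at 6 peaks, where 4.21% of all peaks were higher, among them chr15:97924622-97925501, 14.4 kb upstream (7.14 and 5.68 CPM, 4.79- and 2.91-fold), and the intron peak chr15:97870821-97871715 (9.45 and 8.69 CPM, 3.29 and 2.83). Vdr RNA in cluster 0 was 2.01- and 1.30-fold the other nuclei and was not called. The exon peak with the DR4 AGTTCAtctgGGGTCA (chr15:97858203-97859093) was higher in cDCP-like nuclei, at 18.9 and 18.0 CPM against 4.12 and 4.55 (4.59 and 3.95), and in cluster 0 (2.83 and 2.15). The Vdr window was highest in cDCP-like nuclei, at 185 and 169 CPM, and was called lower in NeuP-like (39.0 and 51.6 CPM, 0.349 and 0.437) and pro-NK/T-like nuclei (53.3 and 70.9 CPM, 0.480 and 0.609). The 3 peaks within 1 kb of an annotated Vdr start, the exon peak with the DR4 among them, were together also lower in NeuP-like nuclei, at 12 CPM in each library (0.409 and 0.401).

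The Rara window was called in no lineage, and differences were seen in single peaks and at the start sites. The peak 2.8 kb upstream of the first start (chr11:98924582-98925457) stood at 24.7 and 21.7 CPM in pro-B-like nuclei against 4.49 and 3.98 (5.50- and 5.45-fold). A peak over an internal start (chr11:98939452-98940144) was higher in MPP or LMPP-like nuclei, at 15.9 and 21.9 CPM (2.44 and 3.46), the lineage whose Rara RNA was called higher. It was also higher in pro-B-like (2.28 and 2.48) and pro-NK/T-like nuclei, at 25.2 and 23.0 CPM (3.64 and 3.21). All peaks at Rara starts together stood at 122 and 135 CPM in pro-NK/T-like nuclei (1.81 and 1.90), the 1 start site pair called higher. In cDCP-like nuclei a peak 27.0 kb upstream, in Wipf2 (chr11:98900333-98901257), stood at 43.0 and 37.9 CPM (3.98 and 3.64). The peak with the DR5 of Rara was highest in cMoP-like nuclei, at 37.3 CPM over both libraries against 20.3 in all nuclei.

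Start sites of Rarg were lower in pro-B-like nuclei and cluster 11, at 26.8 and 32.1 CPM in pro-B-like nuclei (0.367 and 0.425) and 33.0 and 29.3 CPM in cluster 11 (0.502 and 0.40). Cluster 11 and pro-NK/T-like nuclei held no Rarg UMI, but on upper limits of 25.4 and 26.2 CPM, so their level could not be told. In pro-NK/T-like nuclei its start site peak (chr15:102257078-102258018) was higher, at 20.5 and 27.6 CPM (2.39 and 3.07). Of the 8 higher peaks in that window, 3 lay in Itgb7, an integrin gene beside Rarg: chr15:102230575-102231443 in pro-NK/T-like (4.52 and 2.84) and cDCP-like nuclei (3.32 and 2.95), chr15:102225076-102225854 in BaP-like nuclei, at 46.6 and 36.7 CPM (2.30 and 2.18), and chr15:102231589-102232383 in EryP-like nuclei (2.23 and 2.11). The remaining 4 were chr15:102282521-102283422 and chr15:102283599-102284433 in EryP-like, chr15:102273821-102274717 in cDCP-like and chr15:102233788-102234627 in pro-NK/T-like nuclei. Whether such a peak acts on Rarg or on its neighbour cannot be told from counts.

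The Pparg window was highest in cDCP-like nuclei (92.6 and 94.5 CPM), cluster 0 (92.6 and 86.7) and cMoP-like nuclei (86.8 and 85.9). It was called lower in pro-B-like (19.7 and 21.0 CPM, 0.286 and 0.287), pro-NK/T-like (18.7 and 22.1, 0.307 and 0.313), cluster 11 (14.7 and 30.8, 0.239 and 0.437) and MPP or LMPP-like nuclei (40.6 and 39.3, 0.653 and 0.543). The counts were 32 and 24 in pro-NK/T-like nuclei and 28 and 21 in cluster 11. Of all windows, 9.79%, 7.5%, 7.83% and 1.25% were called lower in these 4 lineages, in the order given. EryP-like (0.681 and 0.583), MkP-like (0.673 and 0.553) and HSC-like nuclei (0.716 and 0.675) were also below the other nuclei without a call, and NeuP-like nuclei stood at 0.602 and 0.943. Peaks near an internal start of Pparg were higher in GMP-like and NeuP-like nuclei. The peak chr6:115420633-115421378 stood at 4.97 and 7.39 CPM in GMP-like nuclei (6.71- and 4.67-fold), its neighbour chr6:115421555-115422325 was higher in GMP-like (4.22 and 3.91) and NeuP-like nuclei (4.78 and 4.30), and chr6:115424210-115425107 stood at 13.7 and 11.7 CPM in NeuP-like nuclei (9.42 and 3.82). The intron peak chr6:115374986-115375839 was higher in cluster 0 (3.26 and 2.93) and cMoP-like nuclei (2.49 and 2.68).

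For Nr1h2, Nr2f6 and Rxrb, neighbours filled the windows. The Nr1h2 window was higher in cluster 11, at 549 and 540 CPM (1.79- and 1.89-fold, where 3.58% of windows were higher), and 5 of its peaks were called higher there, where 11% of all peaks were higher, among them an exon peak of the B cell regulator Spib (chr7:44531073-44531791, 39.8 and 33.7 CPM, 7.29 and 9.60) and one of the polymerase gene Pold1 (chr7:44534015-44534891, 85.8 and 70.3 CPM, 4.14 in each library). Without peaks at the starts of other genes the window call was lost, the lower of its ratios being 1.33. A peak 3.1 kb upstream of Nr1h2 itself (chr7:44556627-44557520) was higher in NeuP-like nuclei, at 23.5 and 19.6 CPM against 2.40 and 2.45 (9.79 and 7.99), and in GMP-like nuclei (2.31 and 2.59). Nr2f6 had 1 higher peak, 44.1 kb upstream (chr8:71425587-71426472), at 4.05 and 4.51 CPM in pro-B-like nuclei (7.78 and 8.80). Rxrb had 2, chr17:34068612-34069539 in BaP-like (2.13 and 2.21) and chr17:34071842-34072741 in NeuP-like nuclei (2.14 and 2.44), both over 30 kb from the gene, and its start peak, shared with Slc39a7, stood at 64.1 CPM over all nuclei.

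The peaks with most counts in each window lay at start sites or in introns close to them. They were chr11:98941693-98942591 in a Rara intron (54.6 CPM over all nuclei), the Rarb start peak (10.8), chr2:27739980-27740897 at an internal start of Rxra (22.9), the Rxrb start (64.1), the first start of Pparg (chr6:115360716-115361541, 15.3) and the start of Vdr (chr15:97907865-97908742, 19.6). For Rarg, Nr2f6 and Nr1h2 the peak with most counts was at the start of a neighbour, in Csad and Zfp740, Ocel1 and Pold1.

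Between the libraries, the ratio of library 2 to library 1 over all nuclei was between 0.99 and 1.06 for Rara, Rarb, Rarg, Rxra, Rxrb, Nr2f6 and Vdr, 0.92 (0.90 to 0.94) for Nr1h2 and 1.16 (1.11 to 1.21) for Pparg. None was 1.5-fold, against 0.168% higher and 0.5% lower of 28011 windows, and all 9 lay within the central 95% of windows (0.824 to 1.21). These values pool lineages whose numbers differed between the libraries, such as cluster 0 with 1577 and 3070 nuclei and pro-B-like with 1053 and 523. The values that follow for single lineages are examples from the windows and start sites of all 9 genes in every lineage compared. How many intervals in that whole set left out 1 was not counted. Some of so many 95% intervals would do so by counting error alone, so no gene or lineage is singled out. Within cluster 0, the Pparg window was lower in library 2, at 92.6 and 86.7 CPM (0.936, 0.878 to 0.997), and in NeuP-like nuclei it was higher, at 36.7 and 66.3 CPM (1.80, 1.26 to 2.63). The Rxra window in cluster 11 was lower in library 2, at 81.1 and 42.5 CPM (0.524, 0.277 to 0.925). At the start sites of Pparg the ratio was 1.23 over all nuclei and 1.41 (1.16 to 1.73) in GMP-like nuclei, at 23.5 and 33.2 CPM, and at those of Nr2f6 in cDCP-like nuclei it was 0.516 (0.296 to 0.875). Other intervals that left out 1 included Rara start sites in MPP or LMPP-like nuclei (1.24, 1.06 to 1.46). So did those of Nr1h2 start sites in HSC-like (0.776, 0.661 to 0.912) and Rxrb start sites in MkP-like nuclei (0.70, 0.528 to 0.925). The Vdr window in EryP-like nuclei was a further one (1.31, 1.09 to 1.58).

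Accessibility of peaks that hold the direct repeats was read as observed over expected counts, the expectation being that of all nuclei of the library within 10 classes of peak GC content. Of 174282 peaks, 1181 held a DR1, 1581 a DR2, 400 a DR3, 512 a DR4 and 605 a DR5. A deviation of 10% or more in the same direction in both libraries was found for 2 of 70 pairs of a repeat and a lineage, as the plot of deviations shows. DR5 was above expectation in cMoP-like nuclei, by 16.1% in library 1 (11.3 to 21.1) and 13.9% in library 2 (9.4 to 18.6). DR2 was above it in cDCP-like nuclei, by 13.7% (10.5 to 16.9) and 12.1% (8.9 to 15.3).

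**Figure D5:**
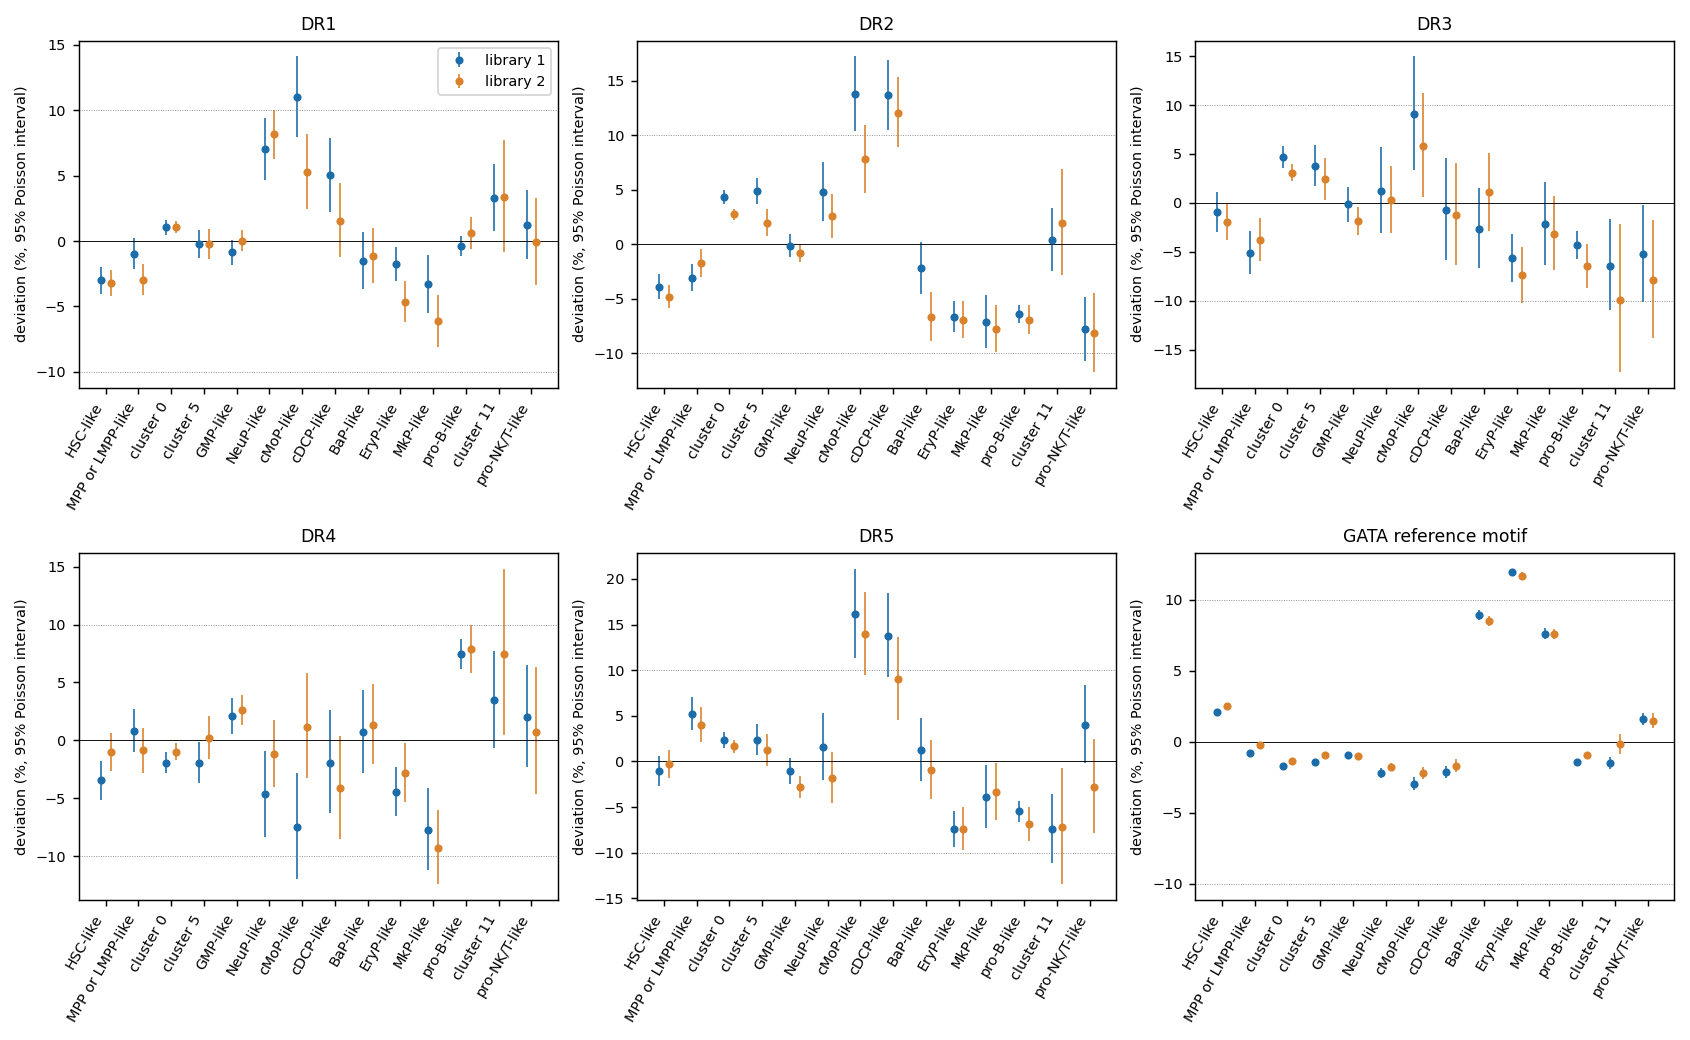
Deviation of the ATAC counts in peaks with each direct repeat or reference motif from expectation (%), by lineage, one point per library with 95% intervals of counting error. DR5 in cMoP-like and DR2 in cDCP-like nuclei pass 10% in both libraries, and GATA in EryP-like nuclei stands at 12% and 11.7%.

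In the 2 deviations, 63.1% of 111 DR5 peaks were above the level of all nuclei in cMoP-like nuclei, against 51.7% of 33790 peaks, and 48.5% of 206 DR2 peaks in cDCP-like nuclei, against 45.2% of 35233. Without the top 5 peaks the deviations of both libraries together were 14.8% and 12%. Without repeats in soft-masked sequence, which took 23.9% of DR5 and 68.5% of DR2 matches, DR5 in cMoP-like nuclei stood at 15.8% and 16.3%, whereas DR2 in cDCP-like nuclei fell to 12.2% and 5.8%. Just short of the limit in 1 library were DR5 in cDCP-like nuclei (13.8% and 9.0%) and DR2 in cMoP-like nuclei (13.8% and 7.8%). The lineages in which Rara RNA was called moved little: DR5 deviated by under 10% in MPP or LMPP-like and GMP-like nuclei. In NeuP-like nuclei DR1 was above expectation by 7.0% and 8.2%.

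Reference motifs gave the scale. The GATA letters deviated by 12% and 11.7% in EryP-like nuclei, the EBF letters by 11.6% and 11.9% in pro-B-like nuclei, and the CEBP letters deviated there by −12.9% and −14.2%, against 13.1% and 6.8% in NeuP-like nuclei. Between the libraries, over all nuclei, DR5 in library 2 was within 0.28% of library 1 and DR1, DR2, DR3 and DR4 differed by −0.10%, 1.5%, 1.71% and −0.60%, whereas the CEBP letters were 4.25% higher. This rise over all nuclei was not seen within GMP-like (−1.23%), NeuP-like (−2.11%) and cluster 0 nuclei (0.53%), whereas pro-B-like nuclei stood at 2.40% (0.55 to 4.29) and cDCP-like nuclei at 5.30% (0.28 to 10.6). In GMP-like nuclei DR5 differed by −1.52% (−3.39 to 0.39) and in HSC-like nuclei by 1.11% (−1.17 to 3.45).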

How the data were processed

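Single-nucleus RNA and ATAC were measured in 4 samples of 4 label groups. The deposited matrix holds raw counts per gene and peak; per the submitters' processing notes the tools were Cell Ranger ARC 2.0.0 with the GRCm38 build (mm10), with Seurat 4.0.3 and Signac 1.3.0 used later, and the authors' UMI and peak counts were taken as deposited. Nuclei with at least 200 genes and 1000 to 50000 peak counts were kept (13619 of 18961). There were 0 mitochondrial rows, and Scrublet (scanpy 1.11.5) called 4 doublets, too few to be credible, so none were removed. Of nonzero peak entries 82.5% were even, so ATAC intervals used pairs of counts. For clustering, 30 principal components of the RNA and latent semantic components 2 to 30 of the peaks were corrected between libraries, joined by weighted neighbours and clustered at resolution 0.8 (Seurat 5.3.0, R 4.3.3), without the 9 genes and their peaks. A cluster was named from listed markers when at least 3 were raised, the list averaged at least 2-fold (as log2) above the other nuclei, and a marker was among its leading genes. The list with most markers among the leading genes gave the name. Cluster 11 passed as mature B-like, but this name was taken away afterwards for its immunoglobulin genes, which left 13 of 16 named (12 names). The pDCP-like nuclei (31 in library 2) were left out of calls.

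Counts were summed per lineage and library in Python 3.11.15 (numpy 2.4.6, pandas 2.3.3, SciPy 1.17.1, scikit-learn 1.9.0, figures with matplotlib 3.10.9) and given with exact Poisson 95% intervals of counting error. A lineage was compared with the other nuclei of its library by fold, with no test, since each suffix is 1 library. The scripts were tested on simulated data, with changes larger than the call limits and, for RNA, in genes with more UMIs than any of the 9 receptors. That gives no error rate for the calls of the receptors. The depth of each library is given above, and it limits the 6 genes under 200 UMIs to coarse statements. The members, lists and tests were chosen with earlier results of these data known. All 9 members are described. For members with at least 200 UMIs the 3 most alike genes are named, for each window the peak with most counts and the one highest over all nuclei in a lineage with at least 200 counts there, and listed genes when called; other peaks were named after their values had been seen. Promoters come from RefSeq (GRCm38.p6). Filters, doublet scores, clustering, scaling, window, hexamers and GC classes were varied.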

Additional observations from a re-analysis of the deposited data

How the results depend on the processing

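Of the 2 lineage calls of the receptors, 1 remained with 500 or more genes per nucleus, 1 with 50 UMIs and 1 with median-of-ratios scaling. There were 4 with 10 UMIs, 17 with no count minimum, and 4 in library 1 alone and 4 in library 2 alone. The limits on fragments, doublet scores, resolution 0.4, uncorrected embeddings and all UMIs as denominator each left 2. The 0 calls between libraries became 19 with no count minimum, where most values rest on a few UMIs, and stayed 0 otherwise. The 13 window calls became 7 with 500 or more genes, where 72 pairs were left and 4 calls were shared, and were between 11 and 19 under the others. The 2 direct repeat deviations became 0 with 500 or more genes (40 pairs, without the cMoP-like and cDCP-like nuclei), 13 with AGGTCA alone (8 higher, 5 lower), 9 without GC classes (2 higher, 7 lower), 5 in peaks over 1 kb from start sites and 5 in library 1 alone. The cause was not tested where fewer nuclei or UMIs do not show it. Without masked repeats there were 2, of which 1 was shared. The values of 1 library alone and without masked repeats were chosen after seeing the data. No call turned its direction in both libraries, though with start site peaks alone the Rarb ratio in cDCP-like nuclei was 0.893 in library 1 and 1.42 in library 2. Of the single calls recomputed, 21 lineage values kept their side of the limit and 3 did not, against 111 and 10 for windows and 19 and 1 for repeats. Of the ratios of named peaks to all nuclei, 39 stayed inside their counting interval and 2 did not, the Vdr upstream peak in pro-B-like nuclei, from 5.31 to 4.71 with 500 or more genes, and a Rarb peak in cluster 0, from 1.31 to 1.42 with uncorrected embeddings. No paired analysis was possible because the labels give no replicate numbers that tie samples and each library stands alone. Depth limits Rarb, Rarg, Rxra, Nr2f6, Pparg and Vdr RNA most.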
